A study of Mus musculus with 6 samples.

Results

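Kidney of the Alport mouse was compared between 5 months and 2 months of age by summing the RNA counts of all spots in 1 section library per age, the library titled 5m AS and the library titled 2m AS. These were 2 of the 6 spatial libraries of the series. Both carry the genotype label B6.Cg-Col4a5tm1Yseg, an allele of the type IV collagen gene Col4a5, and neither carries a treatment label. The kidneys were frozen in embedding medium, cut as cryosections and laid on 10x Genomics Visium slides, where each barcoded spot captures the RNA of the several cells above it. Of 32285 genes listed, 6806 reached 20 CPM (counts scaled to a common library total, here with TMM factors, and called scaled CPM) in at least 1 of the 2 libraries and are the genes tested below. Each age is 1 library, so age, animal, section and slide cannot be told apart and no test could be run. The other 4 libraries, a B6C57 wild type (WT), an early and a late hEV-treated 5-month AS kidney and a mixed library of females, are cited beside results they touch.

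The 5m AS library held 52420718 unique molecular identifiers (UMIs, counted RNA molecules) over 1997 spots, and the 2m AS library 91976637 over 3212 spots. The median spot held 26054 and 28433 UMIs. Counts of 5m AS were made with Space Ranger 1.2.1 and those of 2m AS with version 1.3.1, so age and version cannot be told apart either. The Y-linked gene Ddx3y was at 22.0 scaled CPM in 5m AS and 22.3 in 2m AS. Xist had 3 and 0 UMIs, as in male tissue. Kidney genes marked both libraries: Umod, the uromodulin of the thick ascending limb, was at 4055 and 3461 scaled CPM, and Slc34a1, the proximal phosphate transporter, at 2358 and 4044. Col4a5 itself (ENSMUSG00000031274, chrX:141475385-141689234 of mm10) was at 3.39 scaled CPM from 201 UMIs in 5m AS and at 6.54 from 482 UMIs in 2m AS, for a ratio of 0.518 (0.437 to 0.612). In the other libraries it was at 11.9 in WT, 5.52 and 5.57 in the early and late treated kidneys. Intervals in parentheses are exact 95% intervals for a ratio of Poisson counts and cover counting error within these 2 libraries, not differences between animals.

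Alport syndrome results from faulty collagen alpha 3, 4 and 5 (IV) chains of the glomerular basement membrane. Protein leaks through the damaged filter, and the kidney then progresses through tubular injury, inflammation and interstitial scarring to failure. Injured proximal tubule cells lose transporters and metabolic enzymes, and switch on secreted and adhesion proteins such as kidney injury molecule 1. Macrophages and matrix-producing fibroblasts accumulate around them.

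The older kidney had more RNA of tubular injury, macrophage, antigen presentation, matrix and chaperone genes, and less RNA of proximal tubule transport and metabolism. Of the 6806 genes tested, 396 were at least 2-fold higher in 5m AS (5.82%) and 553 at least 2-fold lower (8.13%). The genes counted as higher took 1.22% of all UMIs in 2m AS and 5.63% in 5m AS, while the genes counted as lower took 30.5% and 16.4%. A ratio beyond 4-fold was reached by 93 higher and 31 lower genes. The median log2 ratio over all genes tested was -0.18 with TMM scaling. With plain CPM it was 0.37, a shift of 0.55, and the split became 1028 higher (14.9%) and 105 lower (1.52%) of 6903 genes. Counts of list members below are to be read beside the share of all genes tested with the same scaling. All 396 higher genes stayed at least 2-fold higher with plain CPM, and 105 of the 553 lower genes stayed at least 2-fold lower. Kap, an androgen-dependent proximal tubule protein, alone took 10.3% of all UMIs in 2m AS and 4.44% in 5m AS.

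**Figure D1:**
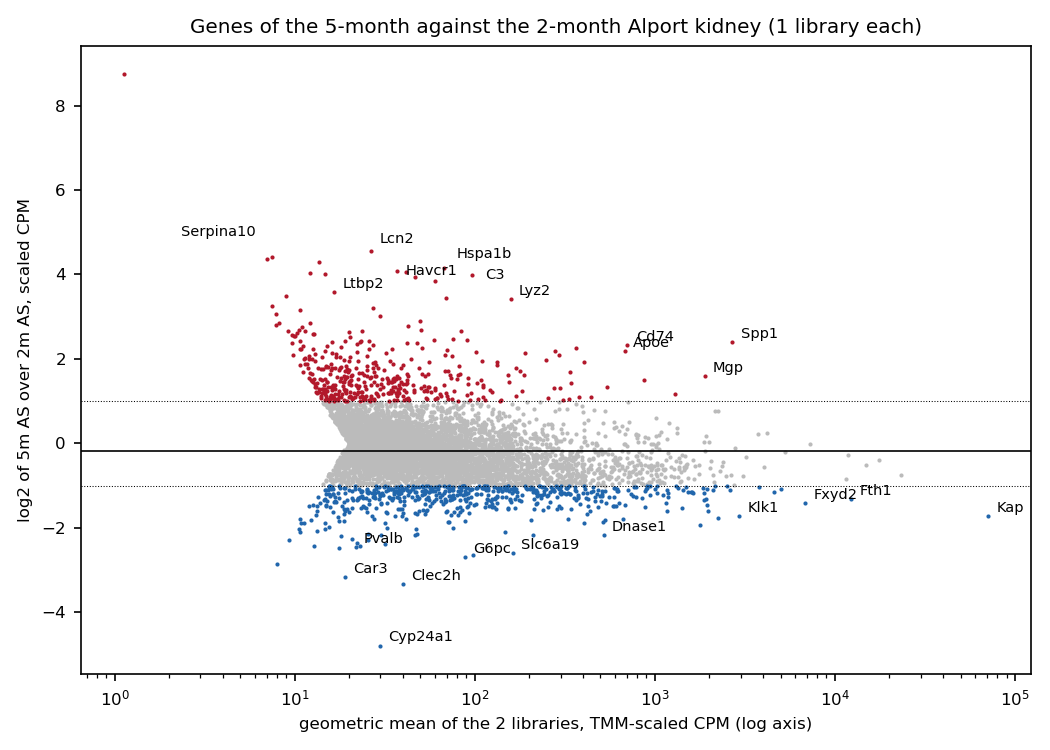
Log2 ratio of 5m AS over 2m AS (vertical) against the geometric mean of the 2 libraries in TMM-scaled CPM (horizontal, log axis), 1 point for each of 6806 genes, with red for the 396 at least 2-fold higher, blue for the 553 at least 2-fold lower, dotted lines at 2-fold and a solid line at the median of -0.18. Lcn2 and Serpina10 are the labelled genes with the largest ratios, the unlabelled point near 9 is Ighg2c, and Cyp24a1 lies lowest.

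Tubular injury genes were much higher at 5 months. Havcr1, kidney injury molecule 1 (ENSMUSG00000040405, chr11:46735080-46779578), was at 152 scaled CPM in 5m AS and 9.02 in 2m AS, for a ratio of 16.9 (15.6 to 18.3). Lcn2, lipocalin 2, an iron-siderophore binding protein released by injured tubules (ENSMUSG00000026822, chr2:32384633-32388252), was at 129 and 5.53, for a ratio of 23.3 (21.1 to 25.9). The younger kidney still held 664 UMIs of Havcr1 and 407 of Lcn2, so neither ratio rests on an absent signal there. Spp1, osteopontin, showed the largest gain in RNA of any gene, from 1176 to 6202 scaled CPM, for a ratio of 5.27 (5.23 to 5.31).

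Of the 21 genes on the injury and failed-repair list, 15 passed the 20 CPM filter, 13 of these were at least 2-fold higher and none was at least 2-fold lower. Their median log2 ratio was 1.93, beside -0.18 over all genes tested. The adhesion molecule Vcam1 was at 136 and 18.3 scaled CPM and the hyaluronan receptor Cd44 at 22.0 and 3.03, ratios of 7.43 and 7.28. The epithelial keratins differed less: Krt8 was at 197 and 98.1, Krt18 at 32.9 and 10.8 and Krt7 at 119 and 62.7. Itgb6, an integrin of activated epithelium, was the exception with a ratio of 0.806 (0.770 to 0.844). The 6 members under the filter were all higher in 5m AS, among them Sox9, a transcription factor of regenerating tubule, at 12.8 and 0.448, and Krt20 at 10.7 and 0.502.

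Several of the largest ratios belonged to secreted or enzyme genes outside that list. Serpina10, an inhibitor of coagulation factor X, was at 34.6 scaled CPM in 5m AS and 1.63 in 2m AS, for a ratio of 21.2 (17.7 to 25.8). Aoc1, the histamine and polyamine oxidase of proximal tubule, was at 60.4 and 3.10, for a ratio of 19.5 (17.1 to 22.4). Ubd, a ubiquitin-like modifier induced by inflammatory cytokines, was at 29.8 and 2.66. Bcat1, the cytosolic branched-chain aminotransferase, was at 59.5 and 9.41, whereas the 2 treated kidneys held 1.25 and 1.01 and WT 0.293.

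Macrophage genes were higher throughout their list. All 14 members that passed the filter, of 15, were at least 2-fold higher, against 5.82% of all genes tested, with a median log2 ratio of 2.41. Lyz2, lysozyme of myeloid cells (ENSMUSG00000069516, chr10:117277331-117282321), was at 516 and 48.5 scaled CPM, for a ratio of 10.6 with a lower bound of 10.3. The complement C1q chains C1qa, C1qb and C1qc, made largely by resident macrophages, had ratios of 5.54, 5.44 and 5.42. Csf1r, the receptor that keeps macrophages alive, was the least different member at 71.5 and 29.9. In summed sections, more cells of a type and more RNA per cell cannot be told apart, here and in every cell type list that follows. Trem2 and Gpnmb, genes of lipid-laden macrophages, were under the filter with 13.1 and 7.76 scaled CPM in 5m AS and 0.706 and 0.285 in 2m AS. Apoe, the lipid carrier secreted by macrophages among other cells, was at 1463 and 320.

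Genes of antigen presentation by MHC class II were higher to a like extent. Cd74, the invariant chain that guides class II molecules, was at 1585 scaled CPM in 5m AS and 313 in 2m AS, for a ratio of 5.06 (4.99 to 5.13). All 6 members of the class II list that passed the filter were past 2-fold, from H2-DMb1 at 2.81 to Cd74, and the seventh, the transactivator Ciita, was at 11.7 and 3.30. Class I genes differed less. Their 8 members that passed had ratios from 1.70 for B2m, the light chain, to 2.17 for the peptide transporter Tap2, which alone was past 2-fold with TMM. Interferon-response genes had none of 7 past 2-fold, with a median log2 ratio of 0.66. These counts depended on the scaling: with plain CPM 8 class I genes and 5 interferon-response genes were at least 2-fold higher. The share of all genes tested then rose from 5.82% to 14.9%. Irgm1, an interferon-induced GTPase, was at 31.8 and 37.8 scaled CPM, and the antiviral gene Rsad2 at 21.0 and 21.1.

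Chemokines that draw monocytes and neutrophils were higher. Ccl2, the main monocyte attractant (ENSMUSG00000035385, chr11:82035571-82037453), was at 59.5 scaled CPM in 5m AS and 3.67 in 2m AS, for a ratio of 16.2 (14.3 to 18.4). Cxcl1, a neutrophil attractant, was at 23.0 and 2.43. Of 23 chemokines 11 passed the filter, 9 of them at least 2-fold higher and none at least 2-fold lower. Cxcl12 was at 132 and 111. Among targets of NF-kB, 6 of the 9 that passed were past 2-fold, led by the macrophage growth factor Csf1 at 31.8 and 6.93.

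C3, the central complement component, was at 387 scaled CPM and 24.3, for a ratio of 15.96 (15.2 to 16.8), the largest of its list. Of the 9 complement genes that passed, 6 were at least 2-fold higher and none lower by that measure, with C4b at 53.4 and 10.1. Cfb differed little, at 293 and 265. The fibrinogen chains Fga and Fgg, clotting proteins that stressed tubules can make, were at 50.9 and 14.8 and at 54.1 and 20.2.

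Markers of lymphocytes and neutrophils were low in both libraries. None of 11 T and natural killer cell genes and none of 7 neutrophil genes reached 20 scaled CPM, and the 11 lymphocyte genes summed to 38.2 in 5m AS and 15.9 in 2m AS. Immunoglobulin RNA stood apart from this. Igkc, the kappa light chain, was at 229 and 15.9 scaled CPM and Ighm, the heavy chain of IgM, at 171 and 10.2, ratios of 14.3 and 16.8. Ighg2c, an IgG heavy chain named here after its values were seen, had 1382 UMIs in 5m AS and 4 in 2m AS, for a ratio of 429 (167 to 1577). The B cell surface genes Cd79a and Ms4a1 were at 1.37 and 0.439 in 5m AS and 2.29 and 0.679 in 2m AS, with no such gain. Immunoglobulin constant genes are close copies of each other, so the split of their reads is uncertain.

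Matrix genes were higher, the fibrillar collagens among them. Of the 23 matrix remodelling genes 18 passed the filter, and 14 of these were at least 2-fold higher and none lower by that measure, with a median log2 ratio of 1.71. Ltbp2, a latent TGF-beta binding protein of elastic fibres, was at 57.5 and 4.79. Tnc, tenascin C of wounded matrix, was at 31.8 and 3.59, and Timp1, the metalloprotease inhibitor, at 84.5 and 10.5. Fn1, fibronectin, was at 180 and 68.8.

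Col1a1, the alpha 1 chain of collagen I, was at 211 scaled CPM in 5m AS and 33.5 in 2m AS, for a ratio of 6.30 (6.03 to 6.58). Col3a1 was at 323 and 98.4 and Col1a2 at 315 and 91.9. Dcn, decorin, which is also a fibroblast gene, was near equal at 115 and 105. Of the basement membrane list, 13 of 17 genes passed: Col18a1 and Hspg2, both large proteoglycan or collagen components, were past 2-fold at 3.09 and 3.04, and Col4a1 and Col4a2 were at 1.98 and 1.797. With plain CPM 9 genes of this list were at least 2-fold higher, beside 14.9% of all genes tested. The Alport chains differed the other way from these, with Col4a3 at 55.6 and 91.3 and Col4a4 at 62.6 and 88.3, ratios of 0.609 and 0.710. Mgp, matrix Gla protein, a brake on calcification, had the second largest gain in RNA, from 1089 to 3303 scaled CPM.

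**Figure D2:**
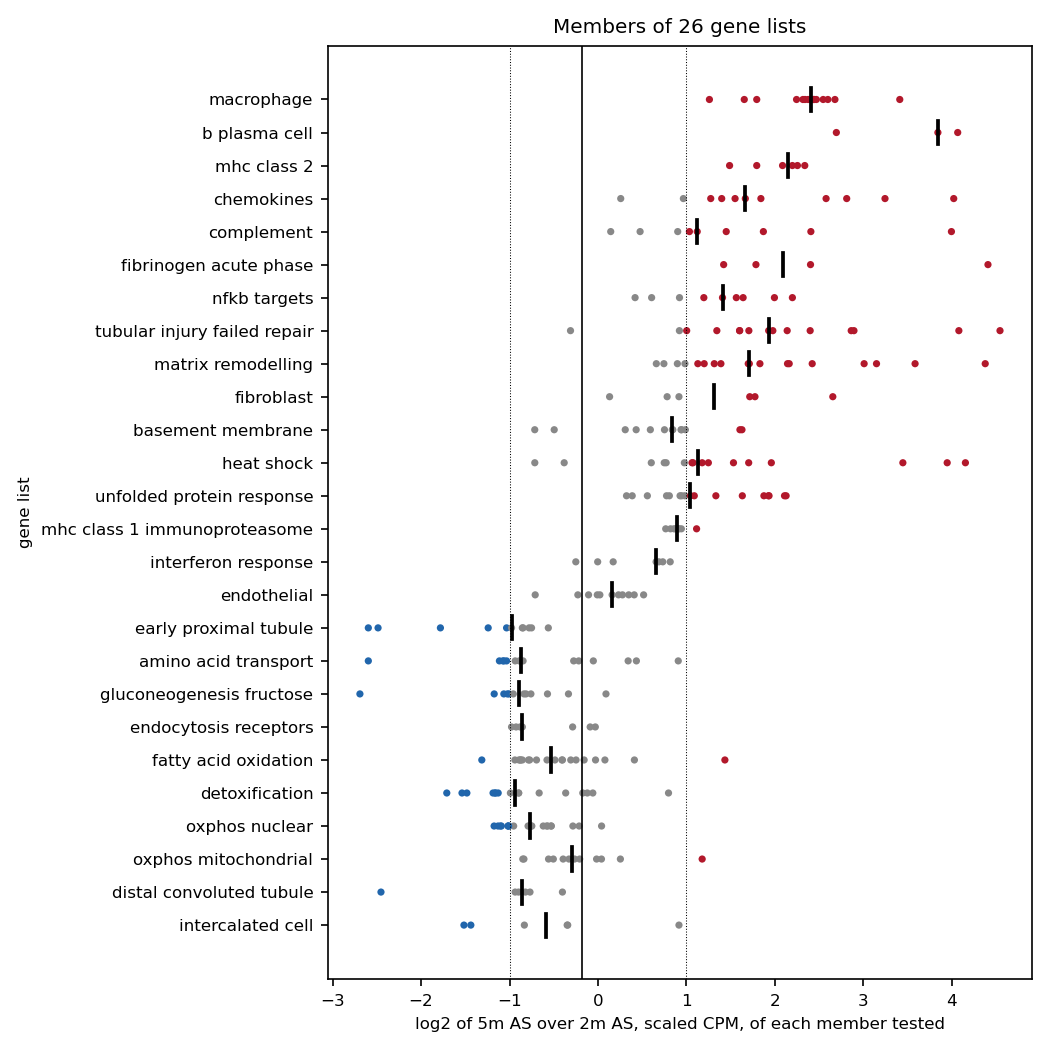
Log2 ratio of 5m AS over 2m AS of each tested member (points) of 26 gene lists, with red for at least 2-fold higher, blue for at least 2-fold lower, a black bar for the list's median and the solid vertical line for the median of all genes tested, -0.18. The 14 macrophage genes all lie right of the 2-fold line, and the early proximal tubule genes lie left of 0.

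Chaperones of the endoplasmic reticulum were higher. Hspa5 (BiP), the chief chaperone of that compartment, was at 794 scaled CPM in 5m AS and 209 in 2m AS, for a ratio of 3.80 (3.73 to 3.87). In WT it was at 449, in the early and late treated kidneys at 614 and 254, and in the mixed library at 366. Its level in 2m AS was thus the lowest of the 6 libraries. Calr, a chaperone of the same list, was at 649 in 5m AS, 305 in 2m AS and 616 in WT. Of the 20 unfolded protein response genes 17 passed the filter and 9 were at least 2-fold higher, with none lower by that measure and a median log2 ratio of 1.05. With plain CPM 15 were at least 2-fold higher, beside 14.9% of all genes tested. Hyou1, Sdf2l1 and Creld2, further folding factors, had ratios of 4.37, 4.32 and 3.82. Creld2 was at 109 in 5m AS, 28.6 in 2m AS and 63.1 in WT. Ddit3 (CHOP), the transcription factor of prolonged stress, was at 67.7 and 18.4, while the lectin chaperone Canx was at 455 and 364.

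Some members of this list hold a known promoter element, the endoplasmic reticulum stress element (CCAAT, then any 9 bases, then CCACG, searched on both strands). In promoter windows from RefSeq on GRCm38.p6, which run from 250 bases before to 50 bases after each gene's start, it was present in 6 of 18 list genes with a window (33.3%): Calr, Canx, Creld2, Hsp90b1, Hspa5 and Pdia6. Of all 27025 genes with a window, 0.137% held it. Windows of Hspa5 (chr2:34771940-34772089, plus strand) and Creld2 (chr15:88819496-88819645, plus strand) are shown for the 150 bases before the start, with the element in capitals, on the opposite strand in Creld2.
Hspa5: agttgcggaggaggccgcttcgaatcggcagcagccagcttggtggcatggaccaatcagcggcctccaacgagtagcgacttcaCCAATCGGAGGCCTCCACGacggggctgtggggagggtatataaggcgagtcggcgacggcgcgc
Creld2: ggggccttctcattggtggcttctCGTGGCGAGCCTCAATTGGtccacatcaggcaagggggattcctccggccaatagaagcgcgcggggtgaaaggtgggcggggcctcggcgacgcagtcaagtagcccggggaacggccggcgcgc
A match is a description of these letters and shows no binding. Canx, with a ratio of 1.25, holds the element, and Sdf2l1, with 4.32, has no match in its window.

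Cytosolic heat-shock genes were also higher, most of all the stress-inducible ones. Hspa1b, an inducible Hsp70, was at 286 scaled CPM in 5m AS and 16.1 in 2m AS, for a ratio of 17.8 (16.8 to 18.9). Its near-identical neighbour Hspa1a was at 184 and 11.9, and reads of these 2 genes may be split between them. Hspb1, a small heat-shock protein of the actin cytoskeleton, was at 229 and 21.0. All 16 list genes passed the filter, and 10 were at least 2-fold higher and none lower by that measure. The mitochondrial pair Hspd1 and Hspe1 lay lowest, with ratios of 0.767 and 0.610. Across the series Hspa1b was at 114 in WT, 34.7 in the early treated, 12.6 in the late treated and 35.1 in the mixed library. The 2 libraries made with Space Ranger 1.2.1, 5m AS and WT, therefore held the most Hspa1b. The part of the software version in this result was not tested. Hsp90aa1 was at 481 in 5m AS, 230 in 2m AS, 452 in WT and 204 in the late treated kidney. Immediate early genes, which respond within minutes to stimulation of a cell, had 3 of 12 past 2-fold: Fosl2, Klf6 and Jun at 4.13, 3.85 and 3.14, and 6 with plain CPM. The shares of all genes tested were 5.82% and 14.9%. Dusp1 and Zfp36 had ratios of 0.769 and 0.743.

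Dividing-cell genes were scarce, with 14 of 18 under the filter. The proliferation antigen Mki67 was at 13.4 and 2.54 scaled CPM, and Top2a, a topoisomerase of dividing cells, was at 9.75 and 2.00. The 4 members that passed, Ccnd1, Pcna, Stmn1 and Mcm6, had ratios from 0.913 to 1.41.

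Proximal tubule genes were lower, most of all those of the early segment. Cyp24a1, the enzyme that inactivates vitamin D (ENSMUSG00000038567, chr2:170482708-170497145), was at 5.65 scaled CPM in 5m AS and 156 in 2m AS, for a ratio of 0.0363 (0.0324 to 0.0404). It was the lowest ratio of the 6806 genes tested. The 2m AS level itself lay above that of WT, 47.1. Slc6a19, the neutral amino acid transporter, was at 66.4 and 401, for a ratio of 0.165 (0.160 to 0.171). Slc5a12, the lactate transporter, was at 7.46 and 41.8, and G6pc, the last enzyme of glucose output, at 34.6 and 224, for a ratio of 0.155 (0.148 to 0.162).

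All 11 early proximal tubule markers passed the filter; 5 were at least 2-fold lower, against 8.13% of all genes tested, and their median log2 ratio was -0.98. With plain CPM 3 were at least 2-fold lower and the median was -0.48. Minus the median of all genes tested, it was -0.80 with TMM and -0.85 with plain CPM. Slc5a2, the main glucose transporter, was at 144 and 340. The receptors that take up filtered protein, Lrp2 (megalin) and Cubn (cubilin), were at 545 and 1073 and at 146 and 264, short of 2-fold. Slc34a1 had a ratio of 0.583 and Slc22a6, an organic anion transporter, 0.678, the highest of the list. Late proximal markers were mixed: Slc27a2, a fatty acid transport protein, had a ratio of 0.395 and the cystine-related transporter Slc7a13 0.462, whereas Serpina1f was at 251 and 115.

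Among phosphate and vitamin D genes, Slc34a3, the second renal phosphate transporter, was at 9.50 and 45.5 scaled CPM and Kl (klotho, the FGF23 co-receptor) at 185 and 447, for a ratio of 0.413. Gc, the vitamin D binding protein, went the other way at 88.8 and 22.1. Of 14 amino acid transport genes that passed, 5 were at least 2-fold lower, and of 16 organic ion transporters 3, with Slco1a1 lowest at 39.0 and 244. With plain CPM 1 of each list was, Slc6a19 and Slco1a1. Of all genes tested 8.13% were at least 2-fold lower with TMM and 1.52% with plain CPM. Clec2h, a lectin-like membrane protein, was at 12.6 and 127, and Sucnr1, the succinate receptor, at 14.1 and 72.7.

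Gluconeogenic and respiratory genes were lower by smaller ratios. Of 12 gluconeogenesis and fructose genes 5 were at least 2-fold lower, among them Mdh1 at 0.444, Pcx at 0.478 and Fbp1 at 0.498. With plain CPM 1 was, G6pc. Of 20 nuclear-encoded subunits of oxidative phosphorylation 7 were at least 2-fold lower and 19 had a ratio under 1, with Cox5a lowest at 682 and 1538 scaled CPM. In WT Cox5a was at 910, below 2m AS. Cox4i1 was at 1779 in 5m AS, 3597 in 2m AS and 2469 in WT, and Cox8a at 1515, 3060 and 1832. With plain CPM 0 of the 20 were at least 2-fold lower, and the median log2 ratio was -0.27 in place of -0.76. Minus the median of all genes tested, the list lay at -0.58 with TMM and -0.63 with plain CPM. Mitochondrially encoded subunits did not share one direction. Among the 12 that passed, mt-Cytb was at 0.555 and mt-Nd3, a complex I subunit, at 2.26, and their median turned from -0.30 with TMM to 0.20 with plain CPM. Minus the median of all genes tested it was -0.11 and -0.17. Fatty acid oxidation genes had 1 of 20 past 2-fold each way: Acsm2 at 0.403, which was short of 2-fold with plain CPM, and Cyp4a14 at 2.70.

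The largest losses in RNA came from a few very abundant genes. Kap was at 39232 scaled CPM in 5m AS and 128427 in 2m AS, for a ratio of 0.305 with TMM and 0.432 with plain CPM. It stood at 74644 in WT and lower in the other 3 libraries, at 29093 in the early treated, 32848 in the late treated and 29124 in the mixed library. The iron-storage ferritin chains Fth1 and Ftl1 had ratios of 0.403 and 0.451, and Fxyd2, the gamma subunit of the sodium pump, 0.377. Their 2m AS levels lay above those of WT. Fth1 was at 7845 in 5m AS, 19490 in 2m AS and 10992 in WT, and Ftl1 at 3095, 6859 and 3783. Fxyd2 was at 4213, 11180 and 8246 in the same order. Klk1, kallikrein of the connecting tubule, was at 1628 and 5359, and Gpx3, the secreted glutathione peroxidase, at 17985 and 30076. In WT Gpx3 was at 33603, above 2m AS.

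Thick ascending limb genes differed gene by gene. With TMM the 6 distal convoluted tubule genes that passed the filter all had a ratio under 1. Their median log2 ratio was -0.86, beside -0.18 over all genes tested. The 6 intercalated cell genes that passed had a median of -0.59, with Aqp6 alone higher, at 22.5 and 11.9 scaled CPM. Egf, made by the thick ascending limb and distal tubule, was at 209 and 776 scaled CPM, for a ratio of 0.269, and the tight-junction gene Cldn10 had 0.439. Slc12a1, the salt transporter of the same segment, was at 424 and 384, and Umod had a ratio of 1.17. In the distal convoluted tubule Pvalb, a calcium buffer, was at 9.34 and 51.2 and Slc12a3, the thiazide-sensitive transporter, at 229 and 405. Aqp2, the water channel of principal cells, was at 370 and 176, and in intercalated cells Atp6v1g3, a proton pump subunit, was at 75.8 and 217. The 2 sections held unlike shares of segment spots, given with the kinds of spot below. Their part in the whole-section values of segment genes was not tested. S100g, the calcium-binding protein of distal tubule, was at 1144 and 3443. None of 11 endothelial genes that passed was past 2-fold (1 with plain CPM), with Kdr, the VEGF receptor, lowest at 26.4 and 43.2.

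Podocyte genes did not share one direction. Synpo, an actin-binding protein of foot processes, was at 29.7 and 9.99 scaled CPM, while Nphs1 (nephrin), under the filter, was at 11.3 and 9.70 and Magi2 at 4.50 and 7.02.

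Spread over the section was read after each spot had been thinned at random to 10000 UMIs, which kept 1834 of the 5m AS spots and 2902 of the 2m AS spots and left out 163 and 310. Values in parentheses use 5m AS spots thinned to 7080 UMIs, the depth that matches the TMM factors, over 1892 spots. Havcr1 was detected in 61.3% of 5m AS spots (50.3%) and 5.00% of 2m AS spots, and Lcn2 in 62.3% (53.1%) and 3.93%. The median 5m AS spot held 1 UMI of each and the richest 10% of spots at least 4. Slc6a19 had a UMI in 45.4% of 5m AS spots and 80.0% of 2m AS spots.

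The general stress genes were spread evenly. Hspa5 lay above the 95th percentile of 2m AS spots, 4 UMIs, in 91.8% of 5m AS spots (74.8%), and the richest 10% of spots held 17.5% of its UMIs. For the endoplasmic reticulum list as a sum the share above was 99.8% (92.2%), and for the heat-shock list 100% (84.9%). Hspa1b was above in 81.7% (66.1%), and its variance beyond counting noise, as a multiple of the squared mean, was 0.087, beside 1.91 for Havcr1 and 1.40 for Lcn2. Hspa1b was thus among the 8 most evenly spread of the 182 genes at least 2-fold higher with at least 50 scaled CPM, with 22.3% of its UMIs in the richest 10% of spots.

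Immune genes were spread less evenly, and immunoglobulins least. The richest 10% of 5m AS spots held 23.3% of MHC class II UMIs and 28.9% of macrophage UMIs. For the heat-shock and endoplasmic reticulum lists these shares were 13.2% and 13.8%. Such shares are not corrected for counting noise, which raises them where a gene or list has few UMIs per spot. The mean 5m AS spot held 84.9 heat-shock, 51.5 endoplasmic reticulum, 43.5 MHC class II and 20.5 macrophage UMIs. The part of these levels in the shares, here and for the single genes below, was not tested. The share of spots above a 2m AS percentile, given next, depends on the size of the difference and does not measure evenness. As a summed level MHC class II exceeded the 95th percentile of 2m AS in 90.6% of 5m AS spots (74.3%), macrophage genes in 85.3% (67.3%), complement in 76.0% (47.4%) and fibroblast genes in 55.2% (35.8%). The injury list, most of whose RNA is Spp1, did so in 72.4% (51.7%). Ccl2 was detected in 34.7% of 5m AS spots, and its richest 10% of spots held 58.8% of its UMIs. Igkc was detected in 39.6%, and the richest 10% held 82.8%, the highest share of the 182 genes, followed by Ighm at 78.3%. Of the 396 higher genes, 85 lay above the 95th percentile in at least 25% of 5m AS spots (45 with matched depth), beside 1.98% of all genes tested (0.720%). The higher genes were chosen by their sums over the same sections and are part of all genes tested. An excess over that share was therefore built in.

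Among lower genes, abundant ones were lower across nearly all spots. Fth1 had a median of 85 UMIs per thinned spot in 5m AS against 153 in 2m AS, and 73.5% of 5m AS spots lay below the 5th percentile of 2m AS. For Fxyd2 that share was 73.3% and for Prdx5, a peroxiredoxin, 70.1%. Klk1 and S100g, in contrast, were concentrated already at 2 months, with 68.1% and 58.0% of their UMIs in the richest 10% of 2m AS spots. Their medians were 11 UMIs in both libraries for Klk1 and 4 against 10 for S100g. The 90th percentile of Klk1 was 35 in 5m AS and 128 in 2m AS. With both libraries at the same depth, its difference thus showed in the richest spots and not at the median. Matched depth was not used for these values and would lower those of 5m AS. Klk1 correlated at 0.67 with distal convoluted tubule genes over 2m AS spots. The part of unlike shares of distal spots, given below, in its values per spot was not tested.

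**Figure D3:**
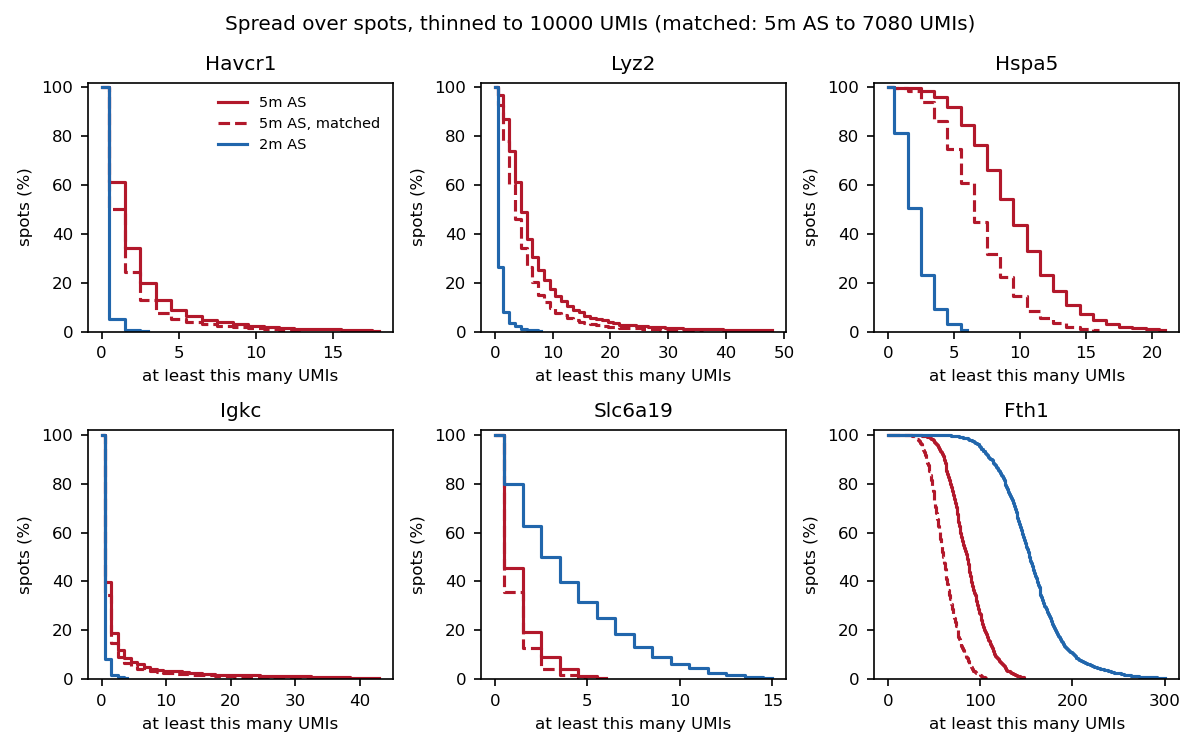
Share of spots (vertical, %) with at least a given number of UMIs (horizontal) for 6 genes after thinning, in 5m AS at 10000 UMIs (solid red, 1834 spots), 5m AS at 7080 UMIs (dashed red, 1892 spots) and 2m AS at 10000 UMIs (blue, 2902 spots). Havcr1, Lyz2, Hspa5 and Igkc curves lie higher in 5m AS, with a long tail for Igkc, and those of Slc6a19 and Fth1 lie lower.

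Which spots carried these RNAs together was described by rank correlation over thinned spots. The spots of a library share its section and sequencing, and all values below are descriptions. In 5m AS macrophage and MHC class II sums had a Spearman correlation of 0.79 over 1834 spots, and in 2m AS 0.45 over 2902. The median spot held 16 macrophage and 37 MHC class II UMIs in 5m AS, and 2 and 5 in 2m AS. Low counts weaken a rank correlation, and the part of this in the differences between the ages was not tested. The injury sum in 5m AS correlated at 0.63 with MHC class II, 0.54 with macrophage genes and -0.57 with amino acid transport genes. In 2m AS these values were 0.24, 0.20 and -0.19. Immunoglobulin genes, as the B and plasma cell sum, stood apart with correlations of 0.11 with macrophage genes and -0.02 with injury genes in 5m AS.

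Spp1 lay in different surroundings at the 2 ages. In 2m AS it correlated at 0.46 with distal convoluted tubule genes, 0.44 with intercalated cell genes and -0.62 with late proximal tubule genes. In 5m AS the same values were 0.03, 0.13 and -0.21, and those with macrophage and fibroblast genes were 0.47 and 0.46, beside 0.18 and 0.22 in 2m AS. The macrophage and fibroblast sums had medians of only 2 UMIs each in 2m AS, against 16 and 10 in 5m AS, which limits the comparison with them. Cyp24a1 correlated at 0.60 with early proximal tubule genes in 2m AS, and it was detected in 58.6% of those spots and in few of the 5m AS spots, whose median and 90th percentile were both 0.

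The differences were also read within 9 kinds of spot, found by clustering the spots of both libraries on 83 nephron segment, podocyte and smooth muscle genes scaled within each library. Most are called by their leading gene, and the injury, immune, matrix and chaperone genes below were not used to form them. The Acta2-led spots, 189 in 5m AS and 115 in 2m AS, were not like tissue at the 2 ages. Their smooth muscle genes summed to 640 scaled CPM in 5m AS and 4878 in 2m AS, their adipocyte genes to 7.5 and 454, their urothelium genes to 2.04 and 171 and their erythrocyte genes to 581 and 17300. Acta2, smooth muscle actin, had a ratio of 0.0816 there. Ranges below therefore cover the other 8 kinds of spot, and the Acta2-led values are given apart.

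In those 8 kinds macrophage genes had medians from 1.98 to 2.90 in log2 and MHC class II genes from 1.90 to 2.43. Injury genes ranged from 1.38 in the Slc12a3-led spots to 2.23 in the Slc5a2-led spots. Endoplasmic reticulum genes lay between 0.86 and 1.08 and heat-shock genes between 1.01 and 1.298, the narrowest ranges of these lists. The medians of all genes tested within a kind of spot, the Acta2-led included, lay between -0.26 and -0.06.

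Over the same 8, Havcr1 ratios ran from 10.6 to 31.6, those of Lcn2 from 13.3 to 44.1 and those of C3 from 7.27 to 23.9. Spp1 ranged from 1.91 in the Atp6v1g3-led spots, where 2m AS was already at 2952 scaled CPM, to 8.35 in the Serpina1f-led spots. Cyp24a1 lay between 0.0193 and 0.231. Hspa5 ranged from 3.40 to 4.30, whereas Hspa1b ranged from 8.87 to 31.9. Col3a1 lay between 2.76 and 3.87 and fibroblast genes had medians from 1.10 to 1.87.

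In the Acta2-led spots Col3a1 was at 826 scaled CPM in 5m AS and 818 in 2m AS, for a ratio of 1.01 (0.943 to 1.08), and fibroblast genes had a median of -0.38. Macrophage genes had a median of 1.71 there and MHC class II genes 1.25. Over the whole sections Upk3a, a uroplakin of the urinary lining, had 116 UMIs in 2m AS against 1 in 5m AS, and Upk1b 54 and 1. The part of tissue content in the Acta2-led values was not tested.

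**Figure D4:**
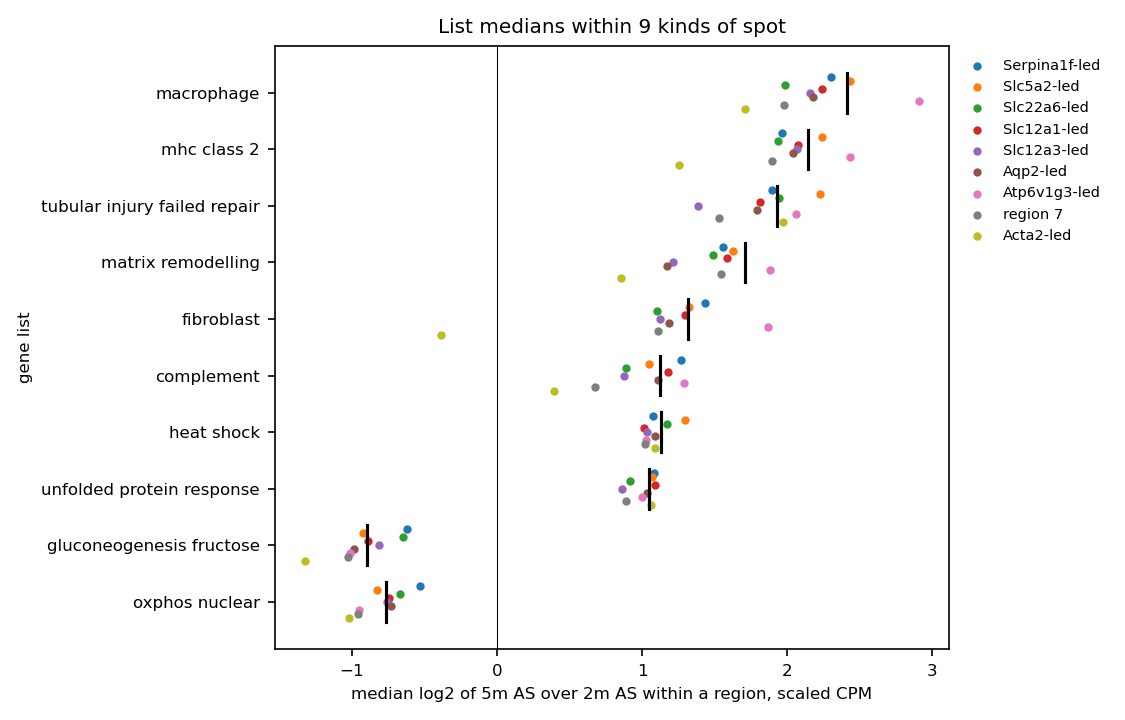
Median log2 ratio of 5m AS over 2m AS of 10 gene lists (rows) within each of 9 kinds of spot (colours, named by leading gene or number), with a black bar for the value over whole sections. Macrophage and MHC class II medians lie right of 1 in all 9, chaperone lists cluster near 1, and the Acta2-led spots, which hold unlike tissue at the 2 ages, lie apart for fibroblast genes at -0.38.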

How the data were processed

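The deposited files hold raw UMI counts per gene and spot, which per the file headers the authors made with Space Ranger 1.2.1 for 5m AS and WT and 1.3.1 for the other 4 libraries. The submitters' processing notes name mm10. The annotation version and the strand setting are not given in the sources used here. Gene coordinates come from GENCODE M21 on the same assembly.

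UMIs were summed over all listed spots and scaled with TMM factors over all 6 libraries (edgeR 4.0.16, R 4.3.3), 1.13 for 5m AS and 0.801 for 2m AS. A gene was counted with at least 20 scaled CPM in 1 library and a ratio of at least 2. With 1 library per age no test was run, no SD exists, and exact 95% intervals (Clopper-Pearson) cover counting error only. A count of 3 UMIs, the limit a count of 0 allows, is 0.0506 scaled CPM in 5m AS and 0.0407 in 2m AS. The scripts were tested on simulated data.

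Named genes were the 15 with the largest ratio each way that held with TMM, plain CPM and each spot weighted equally, without predicted, ribosomal, mitochondrial, haemoglobin, immunoglobulin and sex-linked genes; the members of each list farthest from 0 or from the list's median; the 10 largest gains and losses; the 8 most and least concentrated genes each way; and Col4a5. Other members of the lists are also given. The members and the 53 lists were chosen with earlier results of these data known.

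Spots with at least 500 UMIs (17 left out) were clustered with scanpy 1.11.5 (15 components, 15 neighbours, resolution 0.6, seed 0). This scheme was chosen after a clustering of all 6 libraries on variable genes had separated spots by library. Spot positions were not used, and 1361 barcodes occur in both libraries, since slides share a barcode set. No doublet caller was run on spots. The 11 alternatives of scaling, filter and spots are described in the closing section.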

Additional observations from a re-analysis of the deposited data

How the results depend on the processing

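All settings below use the same 2 libraries, so none of them measures differences between animals. The 396 higher genes became 1028 with plain CPM, 1143 without mitochondrially encoded genes in the totals, 982 with a filter of 5 scaled CPM, 182 with 50 and 3823 with no filter. The 553 lower genes became 105, 104 and 2744 with plain CPM, without mitochondrially encoded genes and with no filter. Both counts stayed within 1.5-fold with median-of-ratios factors (DESeq2), TMM on the pair alone, spots weighted equally, spots of at least 10000 UMIs, region-standardised values and without late-segment-led spots. No gene counted either way changed sign in any setting. List medians minus the median of all genes tested stayed within the 95% order-statistic interval of the list's members in 495 of 516 settings. For the lists with fewest members tested, such as podocyte with 3, the interval is the members' full range and covers less than 95%. Settings that only rescale the libraries move a list and all genes nearly alike, so they could hardly fall outside this interval. Outside it with a filter of 50 scaled CPM were early proximal tubule (-0.53), macrophage (2.82), B and plasma cell (4.34), basement membrane (1.23), MHC class II (2.53), interferon (1.07), organic ion transport (-0.18) and nuclear oxidative phosphorylation (-0.38) genes. With a filter of 5 they were podocyte (0.54), erythrocyte (-1.06), MHC class I (0.94) and cell cycle (1.58) genes. With no filter they were podocyte (0.58), smooth muscle (-0.030), B and plasma cell (0.42), erythrocyte (-1.14), MHC class I (0.85), cell cycle (1.49) and gluconeogenesis (-0.94) genes. Erythrocyte genes were also outside with spots weighted equally (-1.34) and without late-segment-led spots (-1.11). A filter changes which members are counted. The 85 higher genes above the 95th percentile of 2m AS in at least 25% of spots became 48 at 5000 UMIs, 197 with the 90th percentile and 45 with matched depth, a setting chosen after seeing the data. No paired analysis was possible because each age has 1 library. With plain CPM the medians of glycolysis, renin-angiotensin, VEGF, mitochondrially encoded, sterol and nuclear RNA genes changed sign. The median of all genes tested changed sign as well, from -0.18 to 0.37. No replicate could be left out.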
